A study of Homo sapiens with 8 samples.

Results

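The genes described here are the clustered histone genes, taken as every array probe whose gene name begins with HIST1H, HIST2H, HIST3H or HIST4H. They number 83 probes of the 41000 on the array, and carry 65 of the 30982 names in its annotation, with 6 probes for linker histone H1, 22 for H2A, 23 for H2B, 17 for H3 and 15 for H4. The prefix is that of the gene clusters, HIST1 with 64 probes, HIST2 with 13, HIST3 with 4 and HIST4 with 2. Signals came from CAL-27 cells, an established human line from a squamous carcinoma of the head and neck region, on single-colour arrays of total RNA. All cells were starved of serum for 24 h and harvested after a further 24 h, with the compound called Go (n = 2, dose not given in the labels), with enzastaurin at 10 µM (n = 3), or as control (n = 3, with no vehicle named). The series title groups both compounds as inhibitors of a kinase written PCK, and enzastaurin is known as an inhibitor of protein kinase C. Nothing in the labels tells whether replicates came from different cultures, so p-values reflect the spread between these arrays only.

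Core histones H2A, H2B, H3 and H4 form the octamer that DNA wraps around, and H1 binds the linker between octamers. The genes for the replication-dependent forms lie in clusters, are transcribed mainly in S phase under the coactivator NPAT, and give short mRNAs without introns whose end is a stem-loop bound by SLBP in place of a poly(A) tail. Outside S phase these mRNAs are degraded, a step that uses the helicase UPF1, and some of the genes also give longer, polyadenylated transcripts in cells that leave the cycle. The labels name a standard Agilent labelling protocol and not its primer, so whether stem-loop or polyadenylated forms were labelled was not tested. Many of these genes have near-identical copies. Of the 83 probes, 9 list more than 1 current gene among the up to 4 accessions that the array annotation gives for a probe. HIST2H3A, HIST2H2AA3, HIST1H2AJ and HIST2H4A are among them, so a probe name stands for 1 or more copies. For 65 of the 83 probes all 4 places were filled, so further matches may be left out and 9 is a lower bound.

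The promoters of 60 of the 65 genes were found in RefSeq (GRCh38.p14), and 6 of them are shown because their genes carry the contrasts described below. HIST1H4B was the probe with the largest rise and HIST1H4D the H4 probe with the largest fall, HIST1H2AE and HIST1H2BG are divergent neighbours that rose together, and HIST1H3G and HIST1H1E rose with both compounds. Each line gives the 110 bases before the RefSeq start, 5′ to 3′ on the gene's strand, and capitals mark the motif CCAAT, the TATA sequence TATAAA, the octamer ATTTGCAT that OCT1, the product of POU2F1, binds, or the reverse complement of one of these. The coordinates are chr6:26027284-26027393 (minus strand) for HIST1H4B, chr6:26189113-26189222 (minus) for HIST1H4D, chr6:26271414-26271523 (minus) for HIST1H3G, chr6:26216689-26216798 (minus) for HIST1H2BG, chr6:26216811-26216920 (plus) for HIST1H2AE and chr6:26156219-26156328 (plus) for HIST1H1E.
HIST1H4B: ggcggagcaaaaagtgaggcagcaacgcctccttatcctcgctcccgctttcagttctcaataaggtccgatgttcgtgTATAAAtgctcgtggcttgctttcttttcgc
HIST1H4D: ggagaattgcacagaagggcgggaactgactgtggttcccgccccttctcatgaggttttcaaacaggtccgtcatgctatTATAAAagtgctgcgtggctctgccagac
HIST1H3G: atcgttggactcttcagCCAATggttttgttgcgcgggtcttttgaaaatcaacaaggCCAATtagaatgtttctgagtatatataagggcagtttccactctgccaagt
HIST1H2BG: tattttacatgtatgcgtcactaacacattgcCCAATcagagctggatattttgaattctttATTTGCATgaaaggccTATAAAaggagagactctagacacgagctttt
HIST1H2AE: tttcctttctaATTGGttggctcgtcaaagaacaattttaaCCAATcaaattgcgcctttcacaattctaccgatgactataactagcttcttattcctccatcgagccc
HIST1H1E: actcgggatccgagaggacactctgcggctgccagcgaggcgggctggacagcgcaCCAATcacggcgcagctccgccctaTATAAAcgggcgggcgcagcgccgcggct

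In the 250 bases before the start, with both strands searched and none of the motifs contained in another, CCAAT was present in 85% of the 60 histone promoters, against 33% of 27305 promoters of all genes. TATAAA was present in 66.7% of the histone promoters and 11.1% of all. ATTTGCAT was present in 41.7% of the histone promoters and 1.66% of all, and it lay in 11 of 14 H2A and 13 of 17 H2B promoters. The opposite members of an H2A and H2B pair share part of this window, so those counts are not independent. CCAAT lay in 3 of 12 H4 promoters and in every promoter of the other classes matched here (6 of H1, 14 of H2A, 17 of H2B and 11 of H3). HIST1H4B and HIST1H4D, whose probes moved in opposite directions with enzastaurin, both have TATAAA and neither has CCAAT in the stretch shown. A match is a run of letters and not a measured binding site.

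A probe was tested if it lay above background (signal-to-noise score over 3) on at least 2 arrays. This held for 73 histone probes, of which 63 were above background on all 8 arrays, and none of the 83 was saturated. The other 10 were above background on no array: HIST1H1T and HIST1H2BA, which are known from testis, HIST1H4G, both HIST4H4 probes and 1 probe each of HIST1H2AG, HIST1H2AK, HIST2H2AB, HIST1H2BJ and HIST1H2BN. Levels are given as log2(intensity + 50) after quantile normalisation, and differences are on that log2 scale, which understates the change of dim probes. Calls use limma with Benjamini-Hochberg adjusted p under 0.05 over all 24771 probes tested, and fewer cells carrying a transcript and less transcript per cell cannot be told apart in this RNA.

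Arrays differed beyond the groups. By spot position, Go 1 shared slide 1 with the 3 controls while Go 2 shared slide 2 with the 3 enzastaurin arrays, so enzastaurin and control share no slide and their difference cannot be told apart from one between slides. On the first principal component of all tested probes, with 81.7% of the variance, Go lay at 4.4 and 42.3, enzastaurin at 48, 50.8 and 52.6, and control at -89.9, -72.4 and -35.8. Go 1 was closer to control 3 (root mean square difference 0.361) than to Go 2 (0.411), and control 1 and control 3 differed by 0.466. Summed intensities of 9 squamous markers were 52600 and 57600 with Go, 59300 to 64400 with enzastaurin and 55300 to 70800 in control. Of these 9, 1 was higher and 4 lower with Go (11.1% and 44.4%, against 13% and 15.9% of all probes). With enzastaurin 2 were higher and 1 lower (22.2% and 11.1%, against 21.7% and 30.2%). Single markers called included EPCAM at 1.14 for Go and 1.57 for enzastaurin, TP63 at -0.64 and -0.73, and SFN at -0.55 and 0.29. KRT14 was called at -0.82 for Go, a call lost without any 1 array other than control 3. Summed intensities of the tested markers of other cell types were 71.8 to 448 on any array, over 3 of 6 fibroblast, 3 of 6 leukocyte and 2 of 4 endothelial genes, and those that did not reach the background criterion included PTPRC, LYZ, PECAM1, KDR, PDGFRB, COL1A2 and COL3A1. Of those tested, called changes had log2 differences of 0.62 for LUM and -0.68 for CD3E between enzastaurin and control, and their part in the histone results was not tested.

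Histone probes rose with both compounds more often than they fell. With Go, 38 of 73 were higher than in control (52.1%, against 13% of all probes tested) and 1 was lower (1.37%, against 15.9%). With enzastaurin, 31 were higher (42.5%, against 21.7%) and 8 were lower (11%, against 30.2%). The median difference of the histone probes was 0.51 for Go and 0.21 for enzastaurin, against -0.07 and -0.08 for all probes. Over the probes above background on at least 1 array of both groups, differences ran from -0.81 to 3.09 for Go (70 probes) and from -1.05 to 3.68 for enzastaurin (69 probes). A rise of at least 4-fold was called for 9 histone probes with Go (12.3%, against 1.26% of all probes) and for 8 with enzastaurin (11%, against 1.94%). Both counts include HIST1H4B, which passed the background filter through treated arrays alone. Among the 63 histone probes above background on all 8 arrays, 35 were higher and 1 lower with Go, and 27 were higher and 8 lower with enzastaurin. Of all such probes 31.7% were called with Go and 52.7% with enzastaurin, and 40.4% and 38.5% of those calls were higher. All arrays of Go lay above all controls for 47 histone probes and below for 4, where the background is 22.5% and 33.8%, and all enzastaurin arrays lay above the controls for 35 and below for 9, where it is 27.2% and 39.9%. Both comparisons use the same 3 controls. The number of higher probes with Go fell to 20 without control 2 and to 25 without Go 2, while for enzastaurin it stayed within 27 to 33 whichever array was left out. The single lower probe with Go was also lost without control 1, without control 2 or without any 1 enzastaurin array, and 5 probes were lower without control 3.

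**Figure D1:**
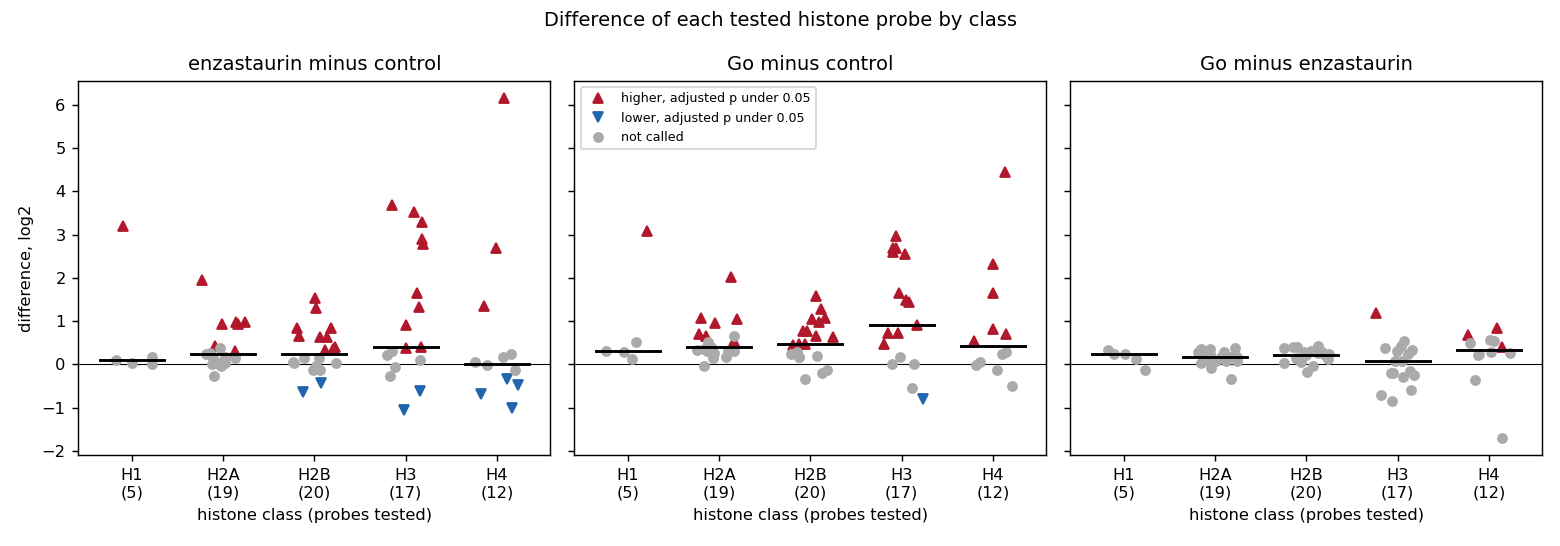
Difference of each of the 73 tested histone probes, in log2 units on the vertical axis, by histone class on the horizontal axis. Panels show enzastaurin minus control, Go minus control and Go minus enzastaurin, triangles mark probes with adjusted p under 0.05 and black lines are class medians. Within the H3 class 5 probes lie far above the others with either compound, and HIST1H4B is drawn at 6.16 for enzastaurin and 4.45 for Go although no control was above background on it.

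The slide matters to these counts. With the slide as a block, Go against control rests on 1 array, Go 1, and the controls of its own slide, with the spread of Go taken to be that of the other groups, and 25 of 73 histone probes were higher and 1 was lower, where 3.3% and 2.1% of all probes were. The histone median was 0.45 with all probes at -0.05. The 1 probe lower with Go was then HIST1H2BF at -0.64, while HIST2H3PS2, the lower probe without the block, had -0.38. For Go against control, leaving out Go 2 gives the same values as this block, so the 2 settings are not separate checks. The same holds for leaving out Go 1 and Go against enzastaurin. For enzastaurin against control, linked across slides only through the 2 Go arrays, 4 probes remained higher, HIST1H3G at 2.85, HIST1H1E at 2.44, HIST1H4B at 2.03 (no control above background) and HIST1H3J at 1.21, where 1.4% of all probes were higher. HIST1H2BF, with 0.04 in the fit without the slide, was then the 1 lower probe at -0.98, where 1.51% of all probes were lower. By class, the medians with the slide as a block were 0.18 for H2A, 0.58 for H2B, 1.07 for H3 and 0.41 for H4 with Go, and -0.04, 0.34, 0.50 and 0.07 with enzastaurin.

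Among H1 genes, whose products bind linker DNA, HIST1H1E rose and the others did not pass the test. HIST1H1E had levels of 9.33 and 10.11 with Go and 9.98, 9.67 and 9.88 with enzastaurin, against 6.43, 6.42 and 7.03 in control. Every treated array lay above every control, and the probe was above background on only 1 of the 3 controls. The difference was 3.09 ± 0.257 (SE) for Go (adjusted p = 0.00353) and 3.21 ± 0.23 for enzastaurin (adjusted p = 0.000273), and with the slide as a block it was 2.70 and 2.44. HIST1H1C, a bright probe on every array, had 13.74 and 13.52 with Go, 13.52, 13.22 and 13.48 with enzastaurin and 13.34, 13.25 and 13.34 in control. Its Go arrays lay just above the rest, with a difference of 0.32 ± 0.117 from control that did not pass (adjusted p = 0.0686). HIST1H1D and HIST1H1A had Go differences of 0.51 and 0.28 and enzastaurin differences of 0.17 and 0.02, none of them called, and HIST1H1B was above background on 3 arrays and on no control.

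Of 19 tested H2A probes 7 were higher with Go and 7 with enzastaurin, with medians of 0.40 and 0.23. These are 36.8% each, against 13% and 21.7% of all probes. With the slide as a block 5 were higher with Go, and the enzastaurin median turned to -0.04, with 8 of 19 probes above 0 in place of 17. HIST1H2AE showed the largest difference, with levels of 9.45 and 10.19 with Go and 9.68, 9.62 and 9.96 with enzastaurin, against 7.68, 7.69 and 8.06 in control. The treated arrays all lay more than 1 unit above the controls. The difference was 2.01 ± 0.222 for Go (adjusted p = 0.00404) and 1.94 ± 0.199 for enzastaurin (adjusted p = 0.000523), and with the slide as a block 1.64 and 1.20, the second no longer called (adjusted p = 0.063). HIST3H2A, HIST1H2AB and HIST2H2AC (probe A_24_P8721) followed at 1.07, 1.04 and 0.96 for Go and 0.99, 0.94 and 0.93 for enzastaurin, where the Go call of HIST2H2AC was lost without control 2. Of the 4 H2A probes named for a bright signal, 2 were called with Go. HIST2H2AA3 (probe A_23_P103981) had differences of 0.35 for Go and 0.26 for enzastaurin, and HIST1H2AK (probe A_24_P217848) had -0.03 and -0.28, none of them called. HIST1H2AH at 0.53 and HIST1H2AG (probe A_24_P303354) at 0.65 were called for Go, and the second also for enzastaurin, at 0.30. The Go call of HIST1H2AH was lost without control 2 and without Go 2, and the enzastaurin call of HIST1H2AG without enzastaurin 1.

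Of 20 tested H2B probes 12 were higher with Go, and 10 were higher and 2 lower with enzastaurin, with medians of 0.46 and 0.24. These are 60% with Go, and 50% and 10% with enzastaurin, against 13%, 21.7% and 30.2% of all probes. HIST1H2BG had levels of 9.22 and 9.43 with Go and 9.39, 9.18 and 9.28 with enzastaurin, against 7.49, 7.66 and 8.10 in control. The difference was 1.58 ± 0.173 for Go (adjusted p = 0.00404) and 1.53 ± 0.155 for enzastaurin (adjusted p = 0.0005), and no treated array reached down to the controls. HIST1H2BD, which spans more than 1000 bases in RefSeq, was 1.28 higher with Go and 1.31 with enzastaurin on probe A_24_P146211. HIST1H2BH, one of the bright H2B probes, was 1.07 and 0.85 higher, and HIST1H2BL 0.63 and 0.35 higher. The Go call of HIST1H2BL was lost without control 2, and its enzastaurin call without control 1 or 2 or enzastaurin 1 or 3. HIST1H2BK and HIST1H2BO, also bright, were called in neither comparison, at 0.29 and 0.24 for Go and -0.14 for each with enzastaurin. Both falls with enzastaurin came from genes with another probe that did not fall, HIST3H2BB and HIST2H2BE.

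Of 17 tested H3 probes 12 were higher and 1 lower with Go, and 10 were higher and 2 lower with enzastaurin, with medians of 0.91 and 0.39. The higher probes were 70.6% with Go and 58.8% with enzastaurin, against 13% and 21.7% of all probes. The lower ones were 5.88% and 11.8%, against 15.9% and 30.2%. HIST1H3G on probe A_23_P42198 had levels of 10.45 and 11.28 with Go and 11.49, 11.58 and 11.65 with enzastaurin, against 7.86, 7.87 and 7.95 in control. Its controls agreed within 0.1 and the probe was above background on 2 of them. The difference was 2.97 ± 0.206 for Go (adjusted p = 0.00221) and 3.68 ± 0.184 for enzastaurin (adjusted p = 0.000129), and it passed the threshold for both in every setting that gave a value. HIST1H3J had 8.25 and 10.33 with Go and 9.85, 9.96 and 9.82 with enzastaurin, against 6.57, 6.42 and 6.78 in control. The Go arrays differed from each other by more than 2 units, and both lay above the controls. The difference was 2.70 ± 0.483 for Go (adjusted p = 0.0117, and 0.0531 without control 2) and 3.29 ± 0.432 for enzastaurin (adjusted p = 0.000973).

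The other large H3 rises rest on controls that differ among themselves. HIST1H3E had levels of 10.82 and 10.95 with Go and 11.47, 11.83 and 11.90 with enzastaurin, against 6.98, 8.01 and 9.64 in control. HIST2H3A, from the HIST2 cluster, had 13.16 and 13 with Go and 13.34, 13.35 and 13.44 with enzastaurin, against 8.98, 10.36 and 12.07 in control on probe A_23_P115375. Its other probe, A_24_P45651, had 12.15 and 11.97 with Go and 12.23, 12.19 and 12.46 with enzastaurin, against 8.07, 9.58 and 10.88 in control. In all of these the treated arrays lay close together in each group while the controls spread over more than 2 units, with control 3 nearest to the treated arrays. The SD among controls was 1.34 for HIST1H3E and 1.55 and 1.41 for the HIST2H3A probes, the highest of the 73 histone probes. The differences were 2.68 ± 0.619, 2.61 ± 0.704 and 2.55 ± 0.645 for Go (adjusted p = 0.0211, 0.0306 and 0.0259) and 3.52 ± 0.554, 2.91 ± 0.63 and 2.79 ± 0.577 for enzastaurin (adjusted p = 0.00177, 0.00636 and 0.00527). The Go calls of all 3 probes were lost without control 2 and without Go 2, which gives the same values as the slide block. Those of both HIST2H3A probes were also lost without Go 1. The Go call of probe A_23_P115375 was lost without any 1 enzastaurin array as well. HIST1H3C followed the same order, with 13.54 and 13.41 with Go and 13.70, 13.63 and 13.57 with enzastaurin, against 11.23, 12 and 12.69 in control, for differences of 1.5 and 1.66, the first lost without control 2 and without Go 2. HIST1H3F was 1.64 and 1.32 higher.

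**Figure D2:**
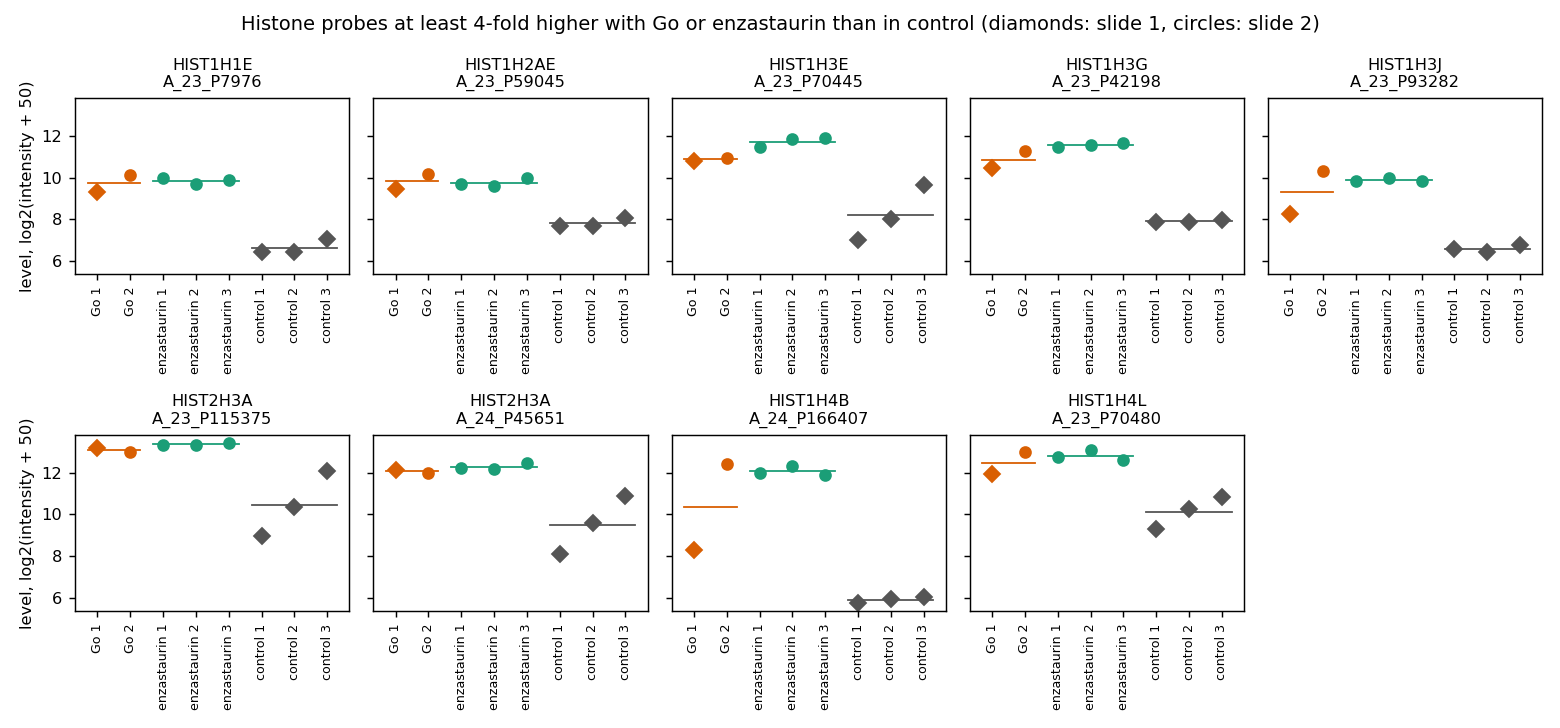
Level of the 9 histone probes called at least 4-fold higher with Go or enzastaurin, on the vertical axis as log2(intensity + 50), for each array on the horizontal axis, with lines at group means and diamonds for the arrays of the controls' slide. The controls of HIST1H3E and both HIST2H3A probes spread over more than 2 units, those of HIST1H3G lie at 7.86 to 7.95, and Go 1 lies well below Go 2 for HIST1H3J and HIST1H4B.

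One H3 probe with a high level went the other way. HIST2H3PS2, whose array name marks a pseudogene and which RefSeq lists as the protein-coding H3-7, had 14.21 and 13.37 with Go and 13.55, 13.53 and 13.55 with enzastaurin, against 14.71, 14.55 and 14.52 in control. All treated arrays lay below all controls, and Go 1, on the controls' slide, lay nearest to them. The difference was -1.05 ± 0.188 for enzastaurin (adjusted p = 0.00291) and -0.81 ± 0.21 for Go (adjusted p = 0.028), the second lost without Go 2, without control 1 or control 2 and without any 1 enzastaurin array. With the slide as a block the difference was -0.20 for enzastaurin and -0.38 for Go. HIST3H3, an H3 form known from testis, was bright on every array, with levels of 15.01 and 14.95 with Go, 14.95, 14.89 and 14.88 with enzastaurin and 14.95, 14.91 and 15.03 in control, and it was called in no comparison.

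Of 12 tested H4 probes 6 were higher with Go (50%, against 13% of all probes), with a median of 0.42. With enzastaurin 3 were higher and 4 lower (25% and 33.3%), near the 21.7% and 30.2% of all probes, with a median of 0.01. HIST1H4B was near background in control and bright after treatment, with levels of 8.29 and 12.42 with Go and 11.98, 12.33 and 11.88 with enzastaurin, against 5.74, 5.92 and 6.04 in control. It was above background on all treated arrays and on no control, so the fold between group means is given as a bound. This was at least 15.4-fold higher with Go and at least 50.2-fold with enzastaurin (adjusted p = 0.0172 and 0.00111). The bound does not allow for the slide. With the slide as a block the log2 difference was 2.39 for Go and 2.03 for enzastaurin, which is less than the bound in both. The bound sets the treated mean against a floor, the 5th percentile of the probes above background on each control array (levels of 6.36 to 6.47), chosen after the data were seen because the dimmest such probes had intensities of 1 to 3. The Go arrays differed by more than 4 units, and the Go call was lost without control 2 (adjusted p = 0.0614). HIST1H4L, with 11.94 and 12.97 with Go and 12.74, 13.09 and 12.63 with enzastaurin, against 9.31, 10.26 and 10.82 in control, was 2.32 ± 0.436 and 2.69 ± 0.39 higher (adjusted p = 0.013 and 0.00132). The Go call was lost without control 2 and without Go 2. Control 3 lay nearest to the treated arrays, and with the slide as a block the differences were 1.81 for Go and 1.66 for enzastaurin. HIST1H4F was 1.64 and 1.35 higher, and it was above background on 1 control only.

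The 4 H4 falls with enzastaurin were smaller. HIST1H4D had levels of 9.83, 10.28 and 9.90 with enzastaurin, against 11.15, 11.19 and 10.67 in control, a difference of -1.0 ± 0.169 (adjusted p = 0.00236). HIST1H4K, HIST1H4J and HIST1H4C had differences of -0.69, -0.48 and -0.33 (adjusted p = 0.00211, 0.00906 and 0.0364). The enzastaurin arrays lay below the controls for all 4, and the HIST1H4C call was lost in 9 of 18 other settings. With Go these 4 had differences of -0.50, -0.02, 0.06 and -0.12, none called. With the slide as a block none of the 4 enzastaurin falls was called.

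Set directly against enzastaurin, Go gave few called differences among the histones. Of 73 probes 4 were higher with Go (5.48%, against 2.09% of all probes) and 0 lower in limma (1.74% of all probes), with 21 higher and 1 lower at an unadjusted p under 0.05. The median was 0.22, against 0.01 for all probes. The probe A_23_P219045 of HIST1H3D had 8.76 and 8.45 with Go, against 7.50, 7.29 and 7.48 with enzastaurin, and 7.84, 7.61 and 7.63 in control. Go was above both other groups on this probe. It was 1.18 ± 0.128 higher with Go than with enzastaurin (adjusted p = 0.006), a difference that passed in all 17 other settings that gave a value. The other HIST1H3D probe, A_24_P217834, had a difference of 0.07 between Go and enzastaurin, not called. HIST2H4A had 10.15 and 9.82 with Go, against 9.07, 9.13 and 9.21 with enzastaurin, a difference of 0.85 ± 0.117 (adjusted p = 0.011). HIST1H4K and HIST1H4H were 0.67 ± 0.127 and 0.39 ± 0.0823 higher (adjusted p = 0.031 and 0.0442). For HIST1H4K this sets 8.95 and 9.12 with Go against 8.42, 8.36 and 8.30 with enzastaurin, while the controls, at 9.20, 9.13 and 8.82, overlapped the Go values. Without any 1 enzastaurin array 1 probe remained called, without control 2 there were 2, without control 3 there were 8 and without Go 1 there were 7. Without Go 2 some probes were called lower with Go than with enzastaurin, so that the count of 0 lower rests on that array. In that fit Go 1 and the enzastaurin arrays lie on different slides, so array and slide cannot be told apart. Among the 9 probes that rose at least 4-fold, the 95% interval of the Go minus enzastaurin difference excluded 0 for HIST1H3G alone, from -1.18 to -0.24 around -0.71, which was not called (adjusted p = 0.0985). It ran from -3.88 to 0.46 for HIST1H4B, from -2.27 to 0.58 for HIST1H3E and from -0.71 to 0.47 for HIST1H1E. The doses cannot be matched, since that of Go is not given.

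Arrays of a group varied unequally. The median SD of the histone probes was 0.167 with Go, 0.0855 with enzastaurin and 0.167 in control, against 0.13, 0.0725 and 0.128 for all probes tested. The control SD exceeded the enzastaurin SD for 59 of the 73 histone probes, which is 80.8%, against 74% of all probes tested. Control 3 lay above control 1 for 14 of 17 H3 probes, with a median difference of 0.25, and below it for 15 of 19 H2A probes, with a median of -0.15. Go 2 lay below Go 1 for 11 of 17 H3 probes and for 3 of 19 H2A probes, with medians of -0.11 and 0.39. The median control SD was 0.349 for H1, 0.194 for H4 and 0.184 for H3, above those of H2A (0.146) and H2B (0.131), and the 3 largest single values were those of the H3 probes named above.

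**Figure D3:**
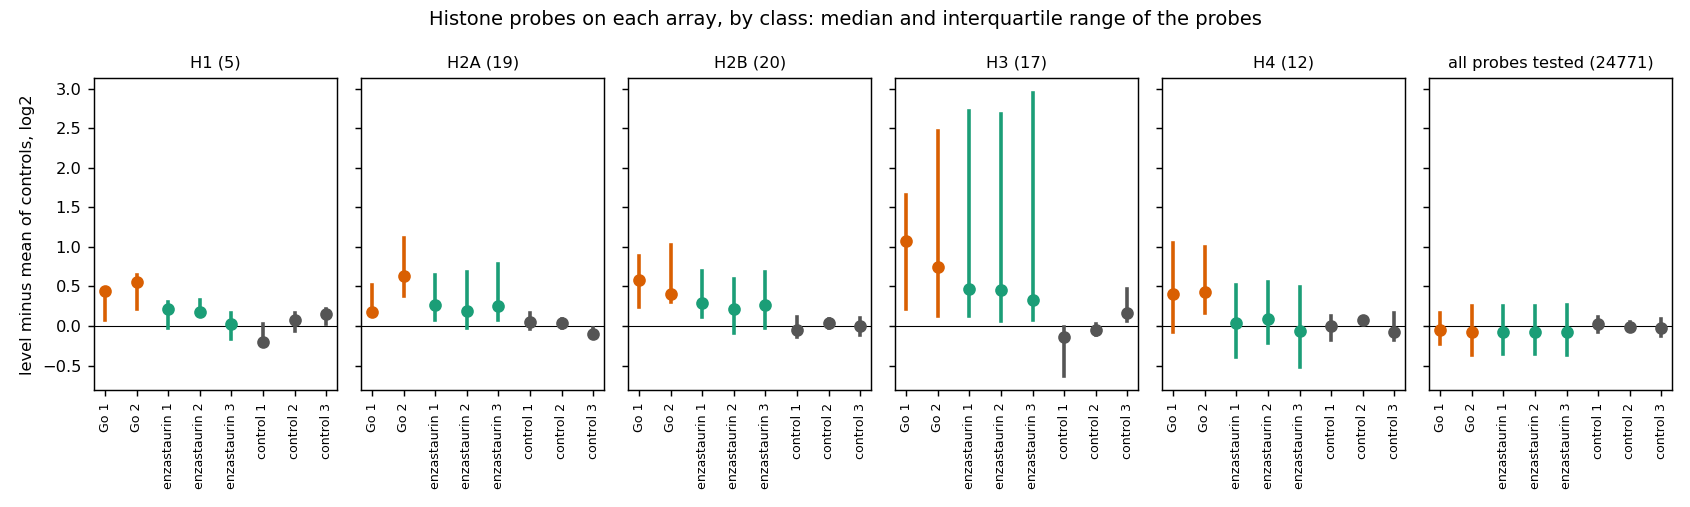
Level of the tested histone probes minus the mean of the 3 controls, in log2 units on the vertical axis, for each array on the horizontal axis, by class and for all 24771 probes tested. Points are medians and bars span the interquartile range of the probes. H3 bars reach 2.68 to 2.95 on the enzastaurin arrays, and H2A medians are 0.18 on Go 1 and 0.63 on Go 2.

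Probes of one gene did not always move together. Of 11 genes with more than 1 tested probe, the probes had the same call in 5 for enzastaurin and in 4 for Go, each against control. The most unequal was HIST1H3G, whose second probe, A_32_P794894, had 7.08 and 7.31 with Go and 6.86, 6.79 and 6.81 with enzastaurin, against 6.59, 6.77 and 6.83 in control. Its difference was 0.46 for Go (called, and lost without control 1, control 2 or Go 2) and 0.09 for enzastaurin (not called), where the first probe gave 2.97 and 3.68. HIST2H2BE was the only gene with opposite calls, for enzastaurin. Its probe A_24_P156911, which also lists H2BC17, was 0.85 higher, A_24_P148321 was lower at -0.44 (lost without control 1 or 2 or enzastaurin 2 or 3), and A_23_P149545 had 0.02. HIST1H2BD gave 1.31 and 0.15 for enzastaurin and 1.28 and 0.20 for Go on its 2 probes, of which the first was called. HIST1H3D gave -0.27 (not called) and -0.61 (lower, and lost without any 1 enzastaurin array) for enzastaurin, and 0.91 (higher) and -0.54 (not called) for Go. HIST3H2BB gave 0.15 (not called) and -0.64 (lower) for enzastaurin. HIST1H3B gave 0.92 and 0.37 (both higher) for enzastaurin, and 1.45 (higher) and 0.18 (not called) for Go. Its call at 0.37 was lost without control 1 or 2 or enzastaurin 1 or 2. HIST1H2AJ gave 0.43 and 0.99 (both higher) for enzastaurin, and 0.70 (higher) and 0.65 (not called) for Go. The calls at 0.43 and 0.70 were both lost without control 2. The first was also lost without enzastaurin 2 or 3, the second without Go 2. The 2 probes of HIST2H3A, in contrast, differed by 0.12 for enzastaurin and 0.06 for Go. Probe sequences were not used here, so which transcript form or copy each probe reads is not known.

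**Figure D4:**
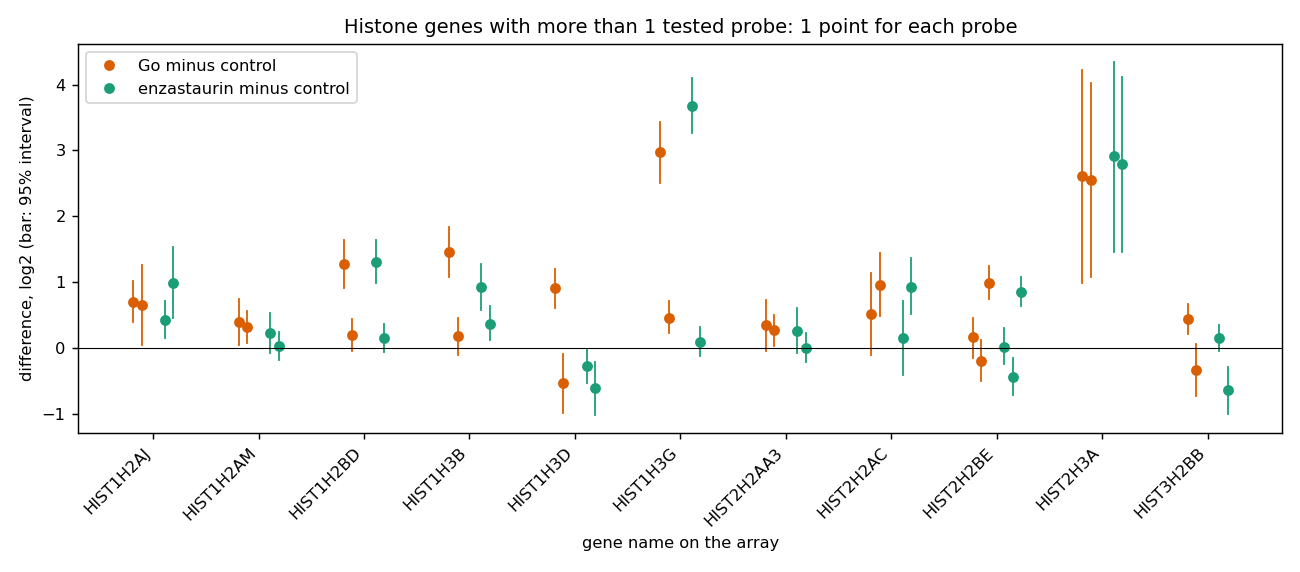
Difference from control in log2 units on the vertical axis, with 95% intervals, for each probe of the 11 histone genes with more than 1 tested probe on the horizontal axis, for Go and for enzastaurin. The probes of HIST2H3A coincide, while those of HIST1H3G lie at 2.97 and 0.46 for Go and at 3.68 and 0.09 for enzastaurin.

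Divergent H2A and H2B neighbours were taken as genes on opposite strands whose starts lie within 1000 bases. They were sought only among the 60 genes with a promoter found, by the start of that promoter, which gave 10 pairs. HIST1H2AH and HIST1H2BK, whose RefSeq spans are adjacent, are not among them. With Go the first of these was called and the second was not. Both partners had a called rise on at least 1 probe in 5 pairs with Go and in 3 with enzastaurin. HIST2H2AC and HIST2H2BE counted in both, although other probes of theirs were not called, and 1 HIST2H2BE probe was lower with enzastaurin. In 2 other pairs counted with Go, HIST1H2AJ and HIST3H2BB each had a further probe that was not called. Neither had a call in 4 pairs with each, among them HIST1H2AA, whose partner HIST1H2BA was not tested. Neighbouring pairs of other genes were not counted, so no background share stands beside these counts. HIST1H2AE and HIST1H2BG, whose promoters are the adjacent stretches shown above, rose by 2.01 and 1.58 with Go and by 1.94 and 1.53 with enzastaurin. HIST1H2AD and HIST1H2BF, in the same arrangement, had 0.30 and -0.13 with Go and 0.03 and 0.04 with enzastaurin, none called. Genes that span more than 1000 bases in RefSeq, and so have transcripts longer than the short stem-loop form or an intron, had 11 tested probes, of which 5 were higher and 1 lower with Go and 4 were higher and 3 lower with enzastaurin. Of the 62 probes of shorter genes 33 were higher with Go, and 27 were higher and 5 lower with enzastaurin. Of all probes tested, 13% were higher and 15.9% lower with Go, and 21.7% were higher and 30.2% lower with enzastaurin. The medians were 0.29 for long genes and 0.53 for short ones with Go, and 0.02 and 0.24 with enzastaurin. These are descriptions of the probes on the array, and no difference between the kinds of gene was tested.

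Lists of genes that work with histones are given beside the shares of all probes stated above, with no test of a difference from the histones. Of 26 S phase and DNA replication genes 1 was higher and 12 were lower with Go, and 3 were higher and 14 lower with enzastaurin, with medians of -0.26 and -0.28. The lower genes were 46.2% with Go and 53.8% with enzastaurin, against 15.9% and 30.2% of all probes. Among the falls were POLA1, the catalytic subunit of DNA polymerase alpha (-0.55 for Go and -0.84 for enzastaurin), the licensing factor CDT1 (-0.60 and -0.81), the helicase cofactor CDC45 (-0.76 for Go and -0.78 for enzastaurin) and the flap endonuclease FEN1 (-0.84 and -0.54). UHRF1, which reads hemimethylated DNA, was higher with both (1.03 and 1.06), and PCNA, the sliding clamp, was 0.99 higher with enzastaurin and 0.40 for Go, the second not called. Of 12 histone chaperone genes 4 were lower with Go, and 2 were higher and 5 lower with enzastaurin (33.3% lower with Go and 41.7% with enzastaurin, against the same 15.9% and 30.2%), with medians of -0.24 and -0.28. CHAF1B, a subunit of the assembly factor CAF-1, had -0.60 and -0.67, and ASF1B had -0.45 and -0.63, and both also stand in the S phase list. NAP1L4 had -0.51 and -0.45 and DAXX had -0.32 and -0.31, called with both compounds. NASP, a chaperone of H3 and H4, was 0.41 higher with enzastaurin. All of the Go calls named here for these 2 lists were lost without Go 2 and without control 2. The enzastaurin calls of CDT1, CDC45, FEN1, CHAF1B, ASF1B, NAP1L4 and DAXX were lost with arrays scaled to the median. That of FEN1 was also lost without any 1 enzastaurin array or control 1 or 2, and that of DAXX without control 2 or enzastaurin 2. With the slide as a block FEN1 and UHRF1 changed sign for enzastaurin, to 0.11 and -0.08. With that block none of the calls named here for these 2 lists was kept with either compound, and PCNA had 0.18 and CDT1 -0.27 for enzastaurin.

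Of 18 genes of histone mRNA processing and transcription 3 were higher and 3 lower with Go, and 4 were higher and 8 lower with enzastaurin, with medians of -0.17 and -0.12. These are 16.7% each way with Go, against 13% higher and 15.9% lower of all probes, and 22.2% and 44.4% with enzastaurin, against 21.7% and 30.2%. UPF1 showed the largest change, 2.93 ± 0.408 higher with Go (adjusted p = 0.00657) and 3.15 ± 0.365 with enzastaurin (adjusted p = 0.000671). Its controls differed among themselves, at 8.34, 8.97 and 9.93, against 11.65 and 12.37 with Go and 12.11 to 12.41 with enzastaurin. POU2F1 was 1.16 and 1.34 higher, and CPSF3, the nuclease that cuts histone pre-mRNA, was 0.81 and 0.83 higher. SLBP was lower with both, at -0.57 ± 0.111 for Go (adjusted p = 0.0141) and -0.37 ± 0.0993 for enzastaurin (adjusted p = 0.0149), and so was CCNE1, cyclin E1, at -0.56 and -0.90. The SLBP call for enzastaurin was lost without enzastaurin 1 or 3, and with arrays scaled to the median its value was 0.04. The Go calls of SLBP and CPSF3 were lost without control 2 and without Go 2, and those of CCNE1 and H1F0 without Go 2. With the slide as a block UPF1 had 2.57 for Go (adjusted p = 0.0337) and 2.43 for enzastaurin (adjusted p = 0.102). Of 12 tested replication-independent or other histone genes 3 were higher with Go, and 4 were higher and 3 lower with enzastaurin, with medians of 0.10 and -0.12. The higher genes were 25% with Go and 33.3% with enzastaurin, against 13% and 21.7% of all probes. H1F0, the linker histone of cells at rest, was 0.91 and 0.82 higher, and H2BFS, an H2B-like gene, 0.89 and 0.69 higher. H2AFY, which encodes macroH2A, was lower with enzastaurin, at -0.56, and so was H1FX at -0.51 (lost without enzastaurin 2). H2AFJ was 0.40 higher with Go, a call kept in 6 of 18 other settings. Under the slide block, the calls named here for the processing genes and these other histones were lost apart from UPF1, POU2F1 and H2BFS for Go and CCNE1 for enzastaurin. Against enzastaurin, Go gave 0 called genes in limma in these 4 lists, with 2, 4, 3 and 0 higher and 2, 1, 2 and 2 lower at an unadjusted p under 0.05 in the processing, other histone, S phase and chaperone lists.

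**Figure D5:**
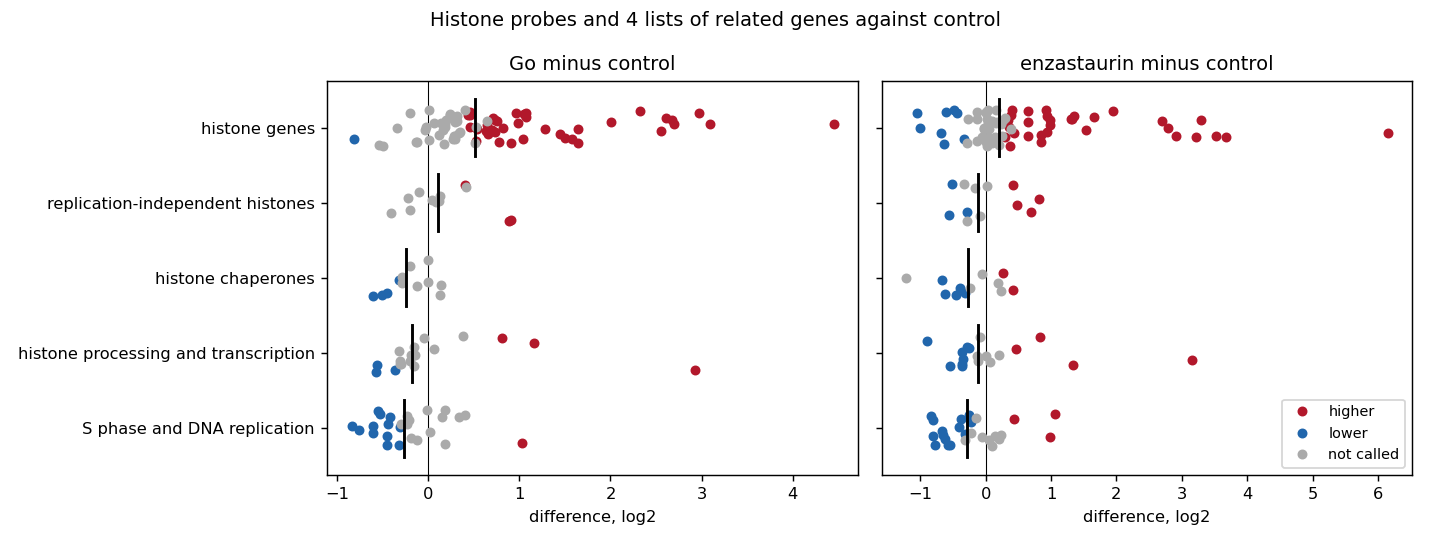
Difference from control in log2 units on the horizontal axis for the 73 tested histone probes and for the tested genes of 4 related lists, 1 point each, with the median as a black line, for Go and for enzastaurin. The histone median is 0.51 for Go and 0.21 for enzastaurin, while the S phase list has -0.26 and -0.28, and UPF1 is the point near 3 in the processing list.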

How the data were processed

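Signals were those of 8 single-colour arrays. The deposited value table gives, by comparison with the scanner tables, background-subtracted intensity on a linear scale, not normalised, with array medians of 38 to 56. The scanner tables are GenePix results per the file headers, and hold, as deposited, each spot's foreground and background intensity, its signal-to-noise score, its saturated pixels in percent, and positions in other columns. Their annotation runs end for end against the spots: the rank correlation with the value table across probes was 0.0072 to 0.013 as deposited and 0.9904 to 0.9937 after turning it, as used here. Of 41000 probes 52.1% to 57.3% were above background on an array. The genome build of the probe design is not given in the sources used here.

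Values were taken as log2(intensity + 50), quantile normalised and fitted with limma 3.58.1 (R 4.3.3) in 1 model of 3 groups over all 8 arrays (5 residual and 3.18 prior degrees of freedom). P-values were adjusted by Benjamini-Hochberg over 24771 probes, and 16229 dim probes were left out. The unit is the probe. The slide of an array was inferred from spot positions. Histone names are those of the array, of which 75 of 83 probes matched RefSeq by accession and 8 by older symbol. Named with values were, by rule, the 4 brightest probes of each class, up to 10 rises and 10 falls of each comparison, the 3 probes most variable in control, genes whose probes disagree, and up to 4 called members of each list in each comparison. HIST1H1B, HIST1H2AB, HIST1H2AD, HIST1H2BF, HIST1H2BG, HIST1H4F and HIST3H2A lie outside this rule and were chosen after their values were seen. The members, lists and rule were chosen with earlier results of these data known. No column of another series' samples was found (0 unused). The fit was tested on simulated data. Alternatives were pseudocounts of 16 and 100, scaling to the 75th percentile or median, no filter, normexp (offset 50) on the scanner tables, 1 probe per gene name, slide and replicate blocks, and each array left out, with, added after seeing the data, the within-slide Go comparisons (the same values as the slide block) and only probes above background on all 8 arrays. The number of arrays limits precision. 1 marker gene that did not reach the background criterion is not reported here.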

Additional observations from a re-analysis of the deposited data

How the results depend on the processing

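Of the settings run, the slide moved the counts most for enzastaurin against control, and leaving out 1 array for the others. With the slide as a block, calls over all probes against control numbered 722 with enzastaurin and 1336 with Go, in place of 12846 and 7140. Histone probes were then higher in 4 for enzastaurin, 25 for Go and 7 for Go against enzastaurin, and lower in 1 for enzastaurin. Scaling arrays to the median gave 4586 calls for Go against control and 3 lower histone probes for enzastaurin. It moved the share of higher calls to 69.8% for enzastaurin and 77% for Go (41.8% and 44.9% before, 31% and 39% with the 75th percentile), and to 26.3% for Go against enzastaurin (54.6% before, 61.4% with the 75th percentile). The median of all probes for enzastaurin was then 0.13, or -0.18 with the 75th percentile, with histone medians of 0.54 and 0.23. For Go the histone medians were 0.70 and 0.53, against 0.04 and -0.13 for all probes. With a pseudocount of 100, 7 histone probes were higher with Go than with enzastaurin, and with no filter 0 were lower with Go than in control. Deviations from the group means had correlations of 0.115, 0.00349 and 0.146 for same-numbered enzastaurin and control arrays. Those of different number ran from -0.195 to 0.211. With 3 arrays in each group, whose deviations sum to 0, these values cannot tell whether the numbers pair the arrays. The replicate block gave 213 calls for Go against enzastaurin, with 1 histone probe higher, and 3 histone probes lower for Go against control.

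Leaving out 1 array at a time, the calls over all probes ranged from 9374 to 14137 for enzastaurin against control, from 986 (without control 2) to 9939 for Go against control and from 106 (without enzastaurin 2) to 2416 (without Go 2) for Go against enzastaurin. Higher histone probes ranged from 27 to 33, 20 to 39 and 1 to 8, and lower ones from 5 to 9, 0 to 5 and 0 to 6 (the last without Go 2). Under the slide block the sign turned for 17 of 73 histone probes for enzastaurin, 4 for Go and 12 for Go against enzastaurin, of which 1 had been called. For enzastaurin the turned values included FEN1 (0.11), UHRF1 (-0.08), HIST1H2AJ A_24_P394510 (-0.07), and the uncalled probes HIST1H2BD A_32_P152348 (-0.09), HIST1H3D A_23_P219045 (0.04), HIST1H3G A_32_P794894 (-0.14, and -0.17 with the 75th percentile) and HIST2H2AC A_23_P301247 (-0.90, and for Go -0.01). The sign also turned with median scaling for DAXX (0.04) and SLBP (0.04). The uncalled HIST2H2BE A_23_P149545, near 0, had -0.37 with the 75th percentile and -0.06 with the median for enzastaurin, and -0.05 with the 75th percentile for Go. Without 1 array it ranged from -0.04 to 0.12 for enzastaurin and from -0.01 to 0.32 for Go, and HIST2H2AC A_23_P301247 from -0.01 to 1.04 for Go. The causes were not tested. Dim probes, such as HIST1H4B and HIST1H1E in control, are limited by signal over background.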
